A study of Mus musculus with 6 samples.

Results

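The genes described here were 6 ligands of the EGF family (Areg, Ereg, Egf, Tgfa, Hbegf and Btc), 3 of its receptors (Egfr, Erbb2 and Erbb3) and Lrig1, a membrane protein that restrains these receptors. They were taken by gene symbol, from a choice made with earlier results of these data known. Each of the 10 symbols matched 1 of the 32285 genes in the count tables. The counts came from barcoded droplets of the MobiNova-100 platform, not all of which held a cell. The cells were crypt epithelium of the mouse ileum purified by flow cytometry for EpCAM, a surface protein of epithelia. In 3 libraries the mice carried Fpr2, a formyl peptide receptor gene, flanked by recombination sites (Fpr2f/f, labelled WT). In the other 3 libraries the mice carried the same floxed allele together with Cre recombinase under the Villin promoter, which is active throughout the intestinal epithelium (Fpr2VKO). Per the study's methods, the mice were sex- and age-matched adults, with 3 in each group. The Fpr2f/f line was on the C57BL/6J background, and Fpr2VKO mice came from its cross with Villin-Cre mice, whose background was not given. The comparison asked which crypt lineage carried each ligand and receptor, and whether the levels differed between Fpr2VKO and Fpr2f/f libraries.

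EGF family ligands are made as membrane proteins and are released by proteases of the ADAM family. Areg, Egf, Tgfa and their relatives bind the receptor EGFR, Hbegf, Ereg and Btc bind EGFR and ERBB4, and neuregulins bind ERBB3 and ERBB4. ERBB2 has no known ligand and acts as the partner of the other receptors, while ERBB3 has little kinase activity of its own. In the small intestine, EGF is a niche factor needed for the growth of stem cells in culture, and Lrig1 is known both as a marker of stem and progenitor cells and as a negative regulator of ERBB signalling.

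The 6 libraries held 90142126 to 189516114 UMIs (unique molecular identifiers, each marking 1 captured transcript). After filters on UMIs, genes and mitochondrial share, 1868 to 4722 cells remained per library. The mitochondrial limit of 20% removed 65.7% to 90.1% of the barcodes that had passed the other filters. Before it, the median mitochondrial share of these barcodes was 31.7%, 26.3% and 29.2% for Fpr2f/f and 39.3%, 33.9% and 32.4% for Fpr2VKO, without overlap, and the part of this difference in the comparisons of the groups was not tested. Clusters were named only from marker genes, and the names end in "-like" for that reason. There were 1360 stem-like, 2943 transit-amplifying-like (TA-like), 990 enterocyte-like, 1033 Paneth-like, 1777 goblet-like, 427 enteroendocrine-like and 342 tuft-like cells. Of the TA-like cells, 789 lay in cluster 10, a shallow cluster (median 2516 UMIs) with no TA marker among its 10 leading genes. A further 7487 epithelial cells lay in clusters that did not meet the naming rule, and 317 non-epithelial cells were left out. The unnamed clusters 4 (1144 cells) and 16 (432 cells) had Fabp6, a gene of the enterocyte marker list, and Slc10a2 among their leading genes. The enterocyte-like class thus leaves out cells with high Fabp6, and unnamed cells include them. The classes differed in depth, with a median of 28997 UMIs for the stem-like class and 27981.5 for the enterocyte-like class against 2532 for the tuft-like class and 3563 for unnamed cells. The epithelial cells of Fpr2VKO libraries were also deeper (median 6110.5 to 6709.5 UMIs) than those of Fpr2f/f libraries (2951 to 4449). Fpr2 was listed at 0 in every barcode of every library, so the deletion could not be checked from these counts. Neurod1, a factor of the enteroendocrine lineage, was also at 0 in every class, enteroendocrine-like cells included, so a 0 in these files does not by itself show that a gene was off. Of their cell barcodes, libraries numbered 1 and 2 of both groups shared 8 to 23 in each pair, where 2.54 to 5.54 would be shared if barcodes were drawn evenly from the platform's list. Both libraries numbered 3 shared 9 with each other, where 2.245 would be, and 0 to 4 with any other library, so they stood apart in this respect. The cells with shared barcodes were kept, and with both libraries numbered 3 left out 0 members were called in any comparison, as with all 6. Summed markers of immune cells stayed between 33.3 and 212 CPM in tuft-like cells and lower in the other named classes.

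Areg, Ereg and Btc are neighbours on mouse chromosome 5 (build GRCm38, GENCODE M21 annotation), and Btc is read from the other strand. Ereg spans chr5:91074622-91093646, Areg chr5:91139599-91148432 and Btc chr5:91357261-91402994. The gap between Ereg and Areg was 45952 bp and that between Areg and Btc 208828 bp, with 0 protein-coding genes annotated in either. Of the other ligand genes, Egf lies on chromosome 3 (129677565-129755316) and Tgfa on chromosome 6 (86195223-86275719). Among the receptors, Egfr lies on chromosome 11 (16752203-16918158), Erbb2 on chromosome 11 (98412470-98437716) and Erbb3 on chromosome 10 (128567523-128589652), and Lrig1 lies on chromosome 6 (94604529-94700158). Exons of Egf share 607 bp and 500 bp with the antisense genes Gm42697 and 6330410L21Rik, exons of Lrig1 share 144 bp with Slc25a26, exons of Ereg share 141 bp with Gm19610, exons of Tgfa share 118 bp with Gm43917, and exons of Erbb2 share 9 bp with Mien1. Whether the counting used strand was not given in the sources used here, so reads of these stretches cannot be assigned with certainty.

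The sequences before the start sites of Areg and Btc are shown because these neighbouring ligands both had their highest level among the named classes in goblet-like cells. RefSeq promoter sequences (GRCm38.p6) were at hand for 7 of the 10 genes, and the 250 bases before the start site were read 5′ to 3′ on the strand of the gene. Areg is shown as chr5:91139349-91139598 on the plus strand, and Btc as chr5:91402995-91403244 on the minus strand. Capitals mark matches to the cAMP response element (TGACGTCA), the AP-1 element (TGANTCA) or the TATA box (TATAAA), searched on both strands.
Areg: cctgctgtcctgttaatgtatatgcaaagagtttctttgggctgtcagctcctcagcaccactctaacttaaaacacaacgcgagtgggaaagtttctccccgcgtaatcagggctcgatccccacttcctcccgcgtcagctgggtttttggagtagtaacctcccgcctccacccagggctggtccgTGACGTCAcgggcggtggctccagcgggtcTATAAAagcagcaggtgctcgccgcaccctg
Btc: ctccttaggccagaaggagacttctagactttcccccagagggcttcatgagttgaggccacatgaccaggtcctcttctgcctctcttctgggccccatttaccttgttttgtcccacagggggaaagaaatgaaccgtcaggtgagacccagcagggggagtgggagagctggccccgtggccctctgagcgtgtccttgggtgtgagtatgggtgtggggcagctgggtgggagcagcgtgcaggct
In the Areg window TGACGTCA began 61 bases and TATAAA 31 bases before the start, without overlap, and the window held no TGANTCA. The Btc window held none of the 3 motifs, and neither did those of Egf, Tgfa, Lrig1, Egfr and Erbb2. Among 32817 mouse promoters of the same length, 1.55% held TGACGTCA, 6.75% held TGANTCA and 12.4% held TATAAA. These matches describe letters in a window and are not binding sites that were measured.

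Levels are given as CPM of the UMIs summed over all cells of a class in a library, with mean ± SD over the 6 libraries (n = 6). They are compared between classes within a gene and not between genes. Since the classes were built from the same cells, the order of classes is a description with no test. Neighbours in that order are called beyond the spread where the mean of the within-library log2 ratio exceeded its SD. Where a value of a cluster has no SD, its UMIs were pooled over the libraries.

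Areg, which encodes amphiregulin, was highest among named classes in goblet-like cells (299 ± 58.9 CPM). The next class, enterocyte-like cells (116 ± 55.9), was lower in 6 of 6 libraries, with a mean log2 ratio of 1.5 ± 0.67. Tuft-like (94.5 ± 113), enteroendocrine-like (76.2 ± 43.3), TA-like (51.6 ± 9.15), Paneth-like (51.0 ± 13.4) and stem-like cells (44.8 ± 21.5) followed, and no neighbours among these or between these and enterocyte-like cells differed beyond the spread. The level in barcodes under 100 UMIs, which hold free RNA and no cell, was 189 ± 67.7 CPM, above that of every named class but goblet-like cells. Of the Areg UMIs, unnamed cells held 51.4% and goblet-like cells 18.2%, against 19.9% and 8.89% of all epithelial UMIs. Unnamed cells had 374 ± 139 CPM, and cluster 2 alone, an unnamed group of 1463 shallow cells, had 1826 ± 273. In cluster 2 the values were 1941, 1620 and 1513 CPM in Fpr2f/f and 1813, 1778 and 2291 CPM in Fpr2VKO libraries, and the groups overlapped. The share of epithelial cells that lay in cluster 2 was 9.94%, 16.7% and 5.37% for Fpr2f/f against 7.02%, 3.55% and 3.86% for Fpr2VKO, where the groups overlapped too. The cells of cluster 2 held 6.15% to 39.2% of a library's epithelial Areg UMIs. Areg itself, Pfkfb3 and Sult6b2 were among the genes that led cluster 2, and 8 of the 10 enterocyte markers were higher there than in other cells, too weakly for a name.

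Hbegf, heparin-binding EGF-like growth factor (chromosome 18, 36504927-36515805), followed the same order at its top. It reached 289 ± 52.3 CPM in goblet-like cells, above enterocyte-like cells (114 ± 26.7) in 6 of 6 libraries, with a mean log2 ratio of 1.35 ± 0.51. Enteroendocrine-like (108 ± 28.0), TA-like (90.9 ± 15.4), stem-like (73.8 ± 26.7) and tuft-like cells (66.7 CPM) came next without differing beyond the spread. Paneth-like cells had 22.4 ± 6.91 CPM, below tuft-like cells by a log2 ratio of 1.51 ± 0.75. Defensin and Paneth marker genes took 53.6% of the UMIs of Paneth-like cells. With them left out of the total, Hbegf was at 48.2 ± 14.3 CPM in Paneth-like and 66.9 ± 22.1 CPM in tuft-like cells. Free RNA held 135 ± 44.6 CPM and unnamed cells 278 ± 69.0. Of the Hbegf UMIs, unnamed cells held 42.3% and goblet-like cells 18.8%, against 19.9% and 8.89% of all epithelial UMIs. After each cell was thinned to 2000 UMIs, 33.8% ± 4.91 of goblet-like and 44.3% of unnamed cells had a Hbegf UMI, against 8.67% of Paneth-like and 4.01% of non-epithelial cells.

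Btc, which encodes betacellulin, was concentrated in goblet-like cells. Its level there was 37.8, 39.4 and 26.2 CPM in Fpr2f/f and 33.1, 30.6 and 26.9 CPM in Fpr2VKO libraries. The groups overlapped, and in every library the value lay above that of stem-like cells, the next named class, at 7.94 ± 1.69 CPM (mean log2 ratio 1.90 ± 0.43). The other named classes had 1.88 to 5.36 CPM, unnamed cells 7.995 ± 1.64 and free RNA 4.05. Goblet-like cells held 8.89% of all epithelial UMIs and 36.5% of the Btc UMIs. Among the 3 goblet-like clusters, cluster 12 (led by Ern2, Rnf39 and Fcgbp) had 41.4 CPM, cluster 14 (led by Zg16, Clca1 and Agr2) 35.1 and cluster 13 (led by Atoh1, a secretory lineage factor, and Id4) 16.4. Thinned to 2000 UMIs, 5.19% ± 1.47 of goblet-like cells had a Btc UMI, against 0.667% of non-epithelial cells, whose median depth was 5862 UMIs against 4372 in goblet-like cells.

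Egf was the ligand of Paneth-like cells, and goblet-like cells came second. Paneth-like cells had 12.6, 11.4 and 16.4 CPM in Fpr2f/f and 13.4, 17.3 and 14.4 CPM in Fpr2VKO libraries, with groups that overlapped. Goblet-like cells had 8.46 ± 1.92 CPM, below Paneth-like cells in 6 of 6 libraries (log2 ratio 0.70 ± 0.28), and stood above enteroendocrine-like cells (2.70 CPM) in 6 of 6 (log2 ratio 1.52 ± 1.05). TA-like (2.20), stem-like (1.93) and enterocyte-like cells (0.673) were lower, and tuft-like cells had 0 UMIs, which allows 6.97 to 24.95 CPM in a library. Paneth-like cells held 16.4% of all epithelial UMIs and 54.1% of the 928 Egf UMIs. Genes of the Paneth marker list and other Defa genes, which encode antimicrobial defensins, took 53.6% ± 2.67 of the UMIs of Paneth-like cells and at most 0.544% on average in another class. With these genes left out of the total, a choice made after the data were seen, the Egf level of Paneth-like cells was 30.8 ± 5.27 CPM. Areg in Paneth-like cells was then at 109 ± 24.9 CPM, against 116 in enterocyte-like cells, and Tgfa at 9.54 ± 3.22. Of the Paneth-like clusters, cluster 21, led by Retnlb and Ccl9, had 21.6 CPM of Egf in the full total and cluster 11, led by defensins, 12.4. After thinning, 2.45% ± 1.27 of Paneth-like cells had an Egf UMI against 0.857% of non-epithelial cells, and before thinning 29.3% against 1.85%, at median depths of 18404 and 5862 UMIs.

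Tgfa and Ereg were the remaining ligands and had low counts. Tgfa, transforming growth factor alpha, was at 18.2 ± 2.18 CPM in goblet-like, 13.9 ± 5.58 in enterocyte-like, 13.9 ± 2.20 in stem-like and 4.46 ± 1.68 in Paneth-like cells, and no neighbours in its order differed beyond the spread. Ereg, which encodes epiregulin, was at 9.22 ± 5.33 CPM in enterocyte-like cells and at 0.933 to 6.12 CPM in the other named classes, against 13.5 ± 4.06 in unnamed cells and 6.27 in free RNA. Its enterocyte-like values were 4.94, 18.9 and 5.32 CPM in Fpr2f/f and 9.83, 5.69 and 10.6 CPM in Fpr2VKO libraries, so the Fpr2f/f 2 library alone set the upper end. Thinned to 2000 UMIs, at most 2.56% of the cells of any class had an Ereg UMI and at most 3.44% a Tgfa UMI.

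**Figure D1:**
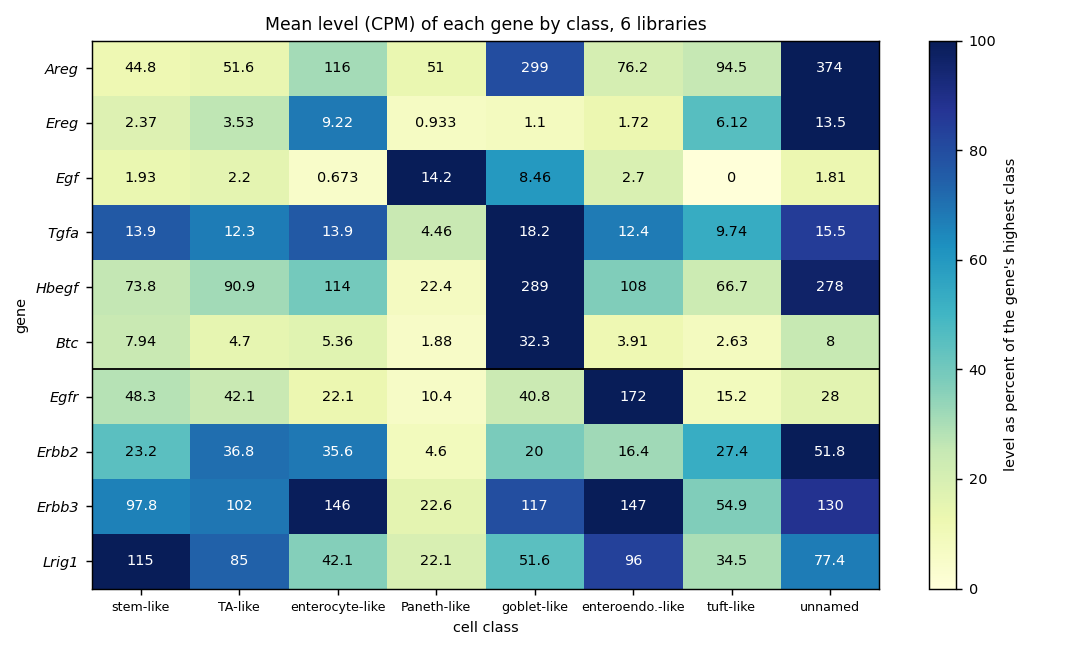
Mean level of each of the 10 genes (rows, ligands above the line) in each cell class (columns) as a grid. The printed value is the mean over 6 libraries in CPM, and the shade is that value as a percent of the gene's highest class, so the darkest cells mark goblet-like cells for Hbegf (289) and Btc (32.3), Paneth-like cells for Egf (14.2), enteroendocrine-like cells for Egfr (172), stem-like cells for Lrig1 (115) and unnamed cells for Areg (374).

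Egfr, the receptor shared by all 6 ligands, was highest in enteroendocrine-like cells, the hormone-producing lineage. The values were 217, 200 and 112 CPM in Fpr2f/f and 184, 194 and 127 CPM in Fpr2VKO libraries. Each lay above the stem-like value of the same library, with a mean log2 ratio of 1.79 ± 0.57. Stem-like cells (48.3 ± 7.30) stood above TA-like cells (42.1 ± 8.23) in 6 of 6 libraries by a log2 ratio of 0.20 ± 0.13. Goblet-like cells (40.8 ± 7.41) stood above enterocyte-like cells (22.1 ± 3.30) by 0.85 ± 0.42, and Paneth-like cells had 10.4 ± 2.40. With defensin genes left out of the total, Paneth-like cells had 22.5 ± 5.57 CPM, against 22.2 in enterocyte-like and 15.2 in tuft-like cells. Free RNA held 18.7 ± 1.81 CPM of Egfr. Enteroendocrine-like cells held 2.62% of all epithelial UMIs and 13.3% of the Egfr UMIs, while stem-like cells held 19.3% of all epithelial UMIs and 26.1% of those of Egfr. Of the enteroendocrine-like clusters, cluster 18, led by Tac1, the serotonin synthesis enzyme Tph1 and Chgb, had 223 CPM, and cluster 24, led by the hormone genes Gcg, Cck and Pyy, had 71.5. Before thinning, 57.4% of enteroendocrine-like cells had an Egfr UMI against 1.97% of non-epithelial cells, at median depths of 12506 and 5862 UMIs, and after thinning 23.98% ± 4.37 against 0%.

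Erbb3, the neuregulin receptor, was at 147 ± 13.2 CPM in enteroendocrine-like and 146 ± 20.5 CPM in enterocyte-like cells, which did not differ beyond the spread (log2 ratio 0.02 ± 0.21). Goblet-like (117 ± 11.7), TA-like (102 ± 6.94) and stem-like cells (97.8 ± 9.0) came next. Enterocyte-like cells stood above goblet-like cells by a log2 ratio of 0.31 ± 0.14, and goblet-like above TA-like cells by 0.20 ± 0.18. Tuft-like (54.9 ± 13.7) and Paneth-like cells (22.6 ± 4.82) were lowest. With defensin genes left out of the total, Paneth-like cells had 48.4 ± 7.67 CPM, still the lowest mean of the named classes. Free RNA held 83.1 ± 6.83 CPM of Erbb3, above tuft-like and Paneth-like cells and below the other named classes. Thinned to 2000 UMIs, 25.5% ± 1.67 of enterocyte-like and 6.78% of Paneth-like cells had an Erbb3 UMI, against 1.86% of non-epithelial cells.

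Erbb2, the partner receptor, was at 36.8 ± 4.03 CPM in TA-like, 35.6 ± 2.28 in enterocyte-like, 27.4 in tuft-like, 23.2 ± 1.40 in stem-like, 20.01 ± 4.49 in goblet-like and 16.4 ± 6.21 in enteroendocrine-like cells, with no neighbours beyond the spread until Paneth-like cells, at 4.60 ± 1.20 CPM. Every TA-like value (31.9 CPM or more) lay above every stem-like value (24.5 CPM or less) and every enteroendocrine-like value (25.2 CPM or less), while tuft-like cells ranged from 11.4 to 46.5 CPM and overlapped all of these. Paneth-like cells lay below enteroendocrine-like cells by a log2 ratio of 1.58 ± 0.59. With defensin genes left out of the total, Erbb2 in Paneth-like cells was at 9.93 CPM, still the lowest mean of the named classes. Unnamed cells had 51.8 ± 6.36 CPM, free RNA 39.96, and cluster 2 101.

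Lrig1 was highest in stem-like cells, at 93.3, 98.8 and 127 CPM in Fpr2f/f and 109, 122 and 141 CPM in Fpr2VKO libraries. The groups overlapped. Enteroendocrine-like (96.0 ± 14.5) and TA-like cells (85.0 ± 16.9) were close below, and stem-like and enteroendocrine-like cells did not differ beyond the spread (log2 ratio 0.26 ± 0.32). TA-like cells stood above goblet-like cells (51.6 ± 6.14) by 0.70 ± 0.24, and Paneth-like cells had 22.1 ± 5.31. Stem-like cells held 19.3% of all epithelial UMIs and 31.7% of the Lrig1 UMIs. The stem-like clusters 22 and 19, both led by Olfm4 and Lgr5, markers of crypt base stem cells, had 184 and 156 CPM. The third stem-like cluster, cluster 8, held 903 of the 1360 stem-like cells, was led by replication genes such as Mcm4, Uhrf1 and Mcm6 with no stem marker among its 10 leading genes, and had 90.02 CPM of Lrig1. Thinned to 2000 UMIs, 20.3% ± 2.12 of stem-like, 17.5% of enteroendocrine-like and 17.5% of TA-like cells had a Lrig1 UMI, against 3.805% of non-epithelial cells.

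**Figure D2:**
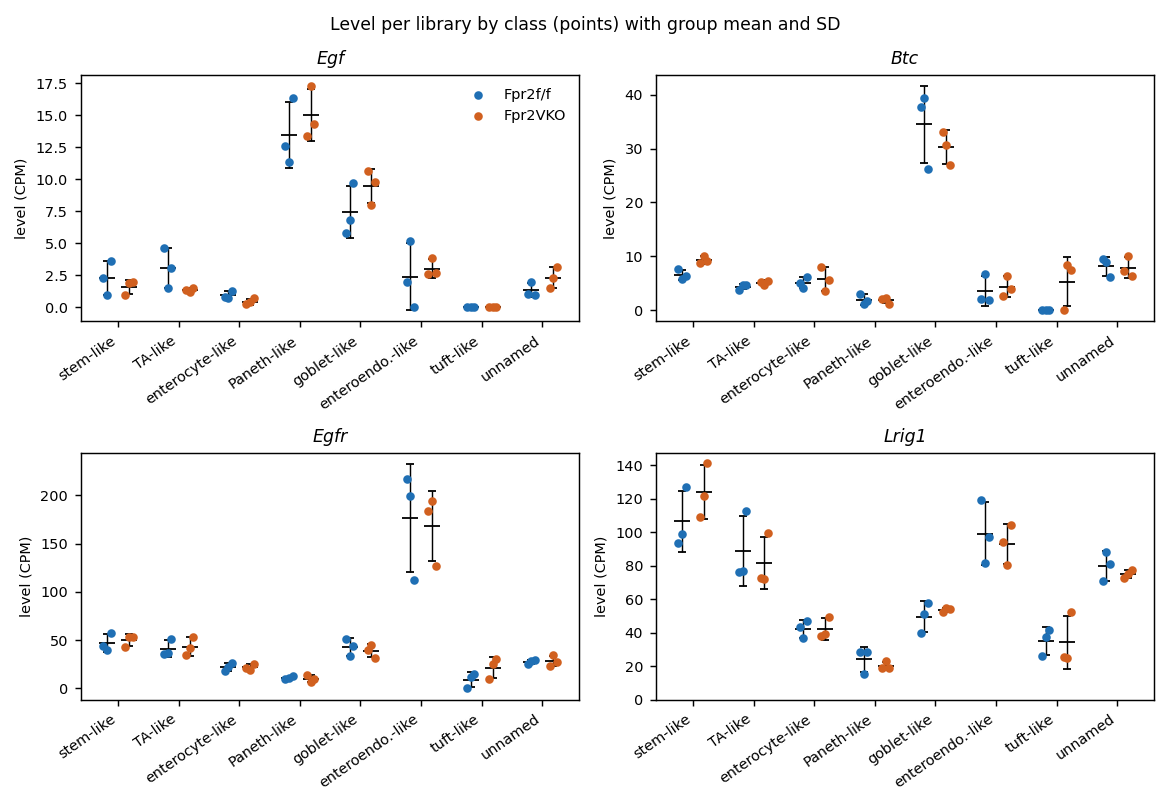
Level (CPM, linear axes) of Egf, Btc, Egfr and Lrig1 in each library, by cell class on the horizontal axis. Points are the libraries (3 Fpr2f/f in blue, 3 Fpr2VKO in orange) with the mean and SD of each group, and Egf stands out in Paneth-like cells (11.4 to 17.3), Btc in goblet-like cells (26.2 to 39.4) and Egfr in enteroendocrine-like cells (112 to 217), with both groups in the same range.

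The levels of some genes also moved with the depth of the cells, which differed between classes and groups. Cells of at least 10000 UMIs (5042 cells) had 76.7 ± 25.1 CPM of Areg and shallower cells (11317 cells) 398 ± 120. For Hbegf the values were 90.7 ± 16.6 and 302 ± 65.4 CPM, for Erbb2 23.5 ± 0.963 and 54.6 ± 5.63, and for Ereg 3.90 and 10.5. Within goblet-like cells the levels of Areg, Hbegf and Btc were close in deep and shallow cells. Areg was at 281 and 341 CPM, Hbegf at 282 and 307 CPM and Btc at 32.5 and 32.0 CPM. Erbb2 was higher in shallow goblet-like cells (30.9 ± 5.97 CPM) than in deep ones (16.6 ± 5.05 CPM). Within TA-like cells Areg was at 27.9 CPM in deep and 150 CPM in shallow cells, and within unnamed cells at 82.0 and 577. Egfr in enteroendocrine-like cells was at 181 CPM in deep and 182 CPM in shallow cells, each a mean over 5 libraries. These were not the same libraries. The deep mean lacked the Fpr2f/f library with the lowest Egfr level (112 CPM), which held 18 deep cells. The shallow mean lacked an Fpr2VKO library, so the closeness of the Egfr means is not a comparison within libraries. The high goblet-like levels of Areg, Hbegf and Btc and the enteroendocrine-like level of Egfr were thus found in deep cells too, and whether free RNA contributed to the high Areg and Hbegf values of shallow cells was not tested.

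**Figure D3:**
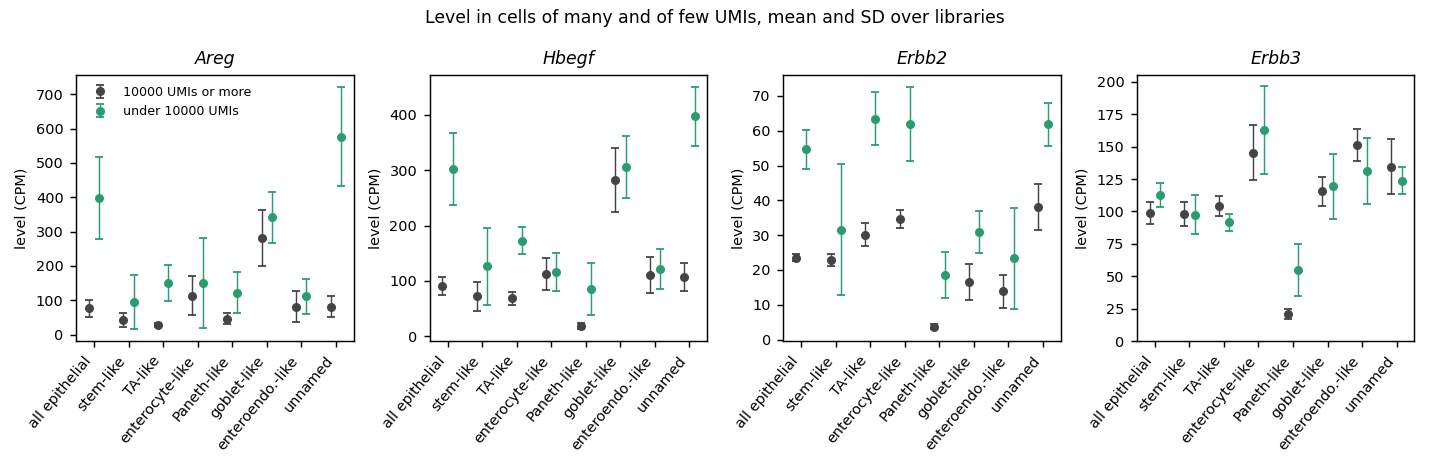
Level (CPM, linear axes) of Areg, Hbegf, Erbb2 and Erbb3 in cells of at least 10000 UMIs (dark) and in shallower cells (green), as mean and SD over libraries, for all epithelial cells and by class. Over all epithelial cells Areg (76.7 and 398), Hbegf (90.7 and 302) and Erbb2 (23.5 and 54.6) were higher in shallow cells, while Erbb3 (98.6 and 113) was close at both depths.

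The genes whose pattern was most like that of each member were ranked by Pearson's r of log2(CPM + 1) over the 48 class-by-library sums, which share libraries and depth, so r is a description. Areg was followed most closely by Epha2 (r = 0.893), Mafk (0.836) and Fosl2 (0.806). For Hbegf they were Rrbp1 (0.897) and St14 (0.895), for Btc Fam107b (0.875), Rdh10 (0.832) and Nipal1 (0.812), and for Egf Ramp1 (0.891), Copz2 (0.858) and Nupr1 (0.844). Tgfa was nearest to Phactr2 (0.887), Tdrd3 (0.886) and Mrtfa (0.880), and Ereg to Slc5a11 (0.781), Slc26a6 (0.777) and Ocm (0.773). For the receptors they were Zranb1 (0.944), Dtd1 (0.917) and Zbtb11 (0.912) for Egfr, Atp5d (0.930), Plcb3 (0.924) and Prkag2 (0.920) for Erbb2, and Elovl7 (0.954), Arl15 (0.938) and Aplp2 (0.934) for Erbb3. Lrig1 was nearest to Spata5 (0.921), Paxip1 (0.921) and Nsd2 (0.918).

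Between the groups, none of the 10 genes passed the test in the sum over all epithelial cells (edgeR's quasi-likelihood test, adjusted p under 0.05, Benjamini-Hochberg over all genes tested), and 0.0425% of the 16481 genes tested were called. By DESeq2 0 members were called as well, against 0.371% of all genes. An unadjusted p under 0.05 was found for 0 members in either test, against 9.3% of all genes with edgeR and 4.52% with DESeq2. Log2 fold changes (Fpr2VKO over Fpr2f/f) ran from -0.37 ± 0.24 (SE) for Hbegf to 0.15 ± 0.22 for Egf, and that of Areg was -0.28 ± 0.35. The values of Hbegf and Areg turned direction in some settings, Hbegf to 0.016 and Areg to 0.44 in cells of at least 10000 UMIs, and Areg also to 0.37 with a mitochondrial limit of 10% and to 0.13 without Fpr2f/f 2. The other members were Ereg (-0.30 ± 0.23), Erbb2 (-0.18 ± 0.13), Tgfa (-0.03 ± 0.17), Lrig1 (0.04 ± 0.11), Egfr (0.04 ± 0.10), Btc (0.05 ± 0.17) and Erbb3 (0.10 ± 0.11). Of all these values 5 of 10 were above 0, and their median was 0.0025 against -0.0063 over all genes tested. For Areg, Hbegf and the rest, 0 members had groups that did not overlap, against 13.7% of all genes tested. In a sum over cells of several types, fewer cells of a type and less RNA per cell cannot be told apart.

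Nor was any member called in a single class. Of all genes tested, the share called was 0.303% for stem-like, 0.00842% for TA-like, 0.0584% for enterocyte-like and 0.0105% for Paneth-like cells. It was 0.136% for goblet-like, 0.0111% for enteroendocrine-like, 0.0245% for tuft-like and 0.00814% for unnamed cells. After the filter on low counts, 10 members were tested in stem-like, TA-like and unnamed cells, 9 in enterocyte-like, Paneth-like and goblet-like cells, 7 in enteroendocrine-like cells and 3 in tuft-like cells (Areg, Hbegf and Erbb3). In TA-like, enteroendocrine-like, tuft-like and unnamed cells 0 of the members tested had groups that did not overlap, against 8.65%, 8.42%, 8.01% and 12% of all genes tested. Unadjusted p-values under 0.05 were found for 2 members in enterocyte-like cells (6.27% of all genes) and for 1 each in stem-like (9.44%), TA-like (4.35%), Paneth-like (7.29%) and goblet-like cells (9.53%). DESeq2 called 0 members in every class as well, where it called 0.312% of all genes for the stem-like, 0.0121% for the TA-like, 0.136% for the enterocyte-like and 0.0286% for the Paneth-like class. For goblet-like, enteroendocrine-like, tuft-like and unnamed cells its shares were 0.211%, 0.00987%, 0.00613% and 0.00755%. The median log2 fold change of the members lay between -0.12 (unnamed cells, 2 of 10 above 0) and 0.10 (stem-like cells, 7 of 10 above 0), where that of all genes tested was -0.0008 and 0.0028.

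**Figure D4:**
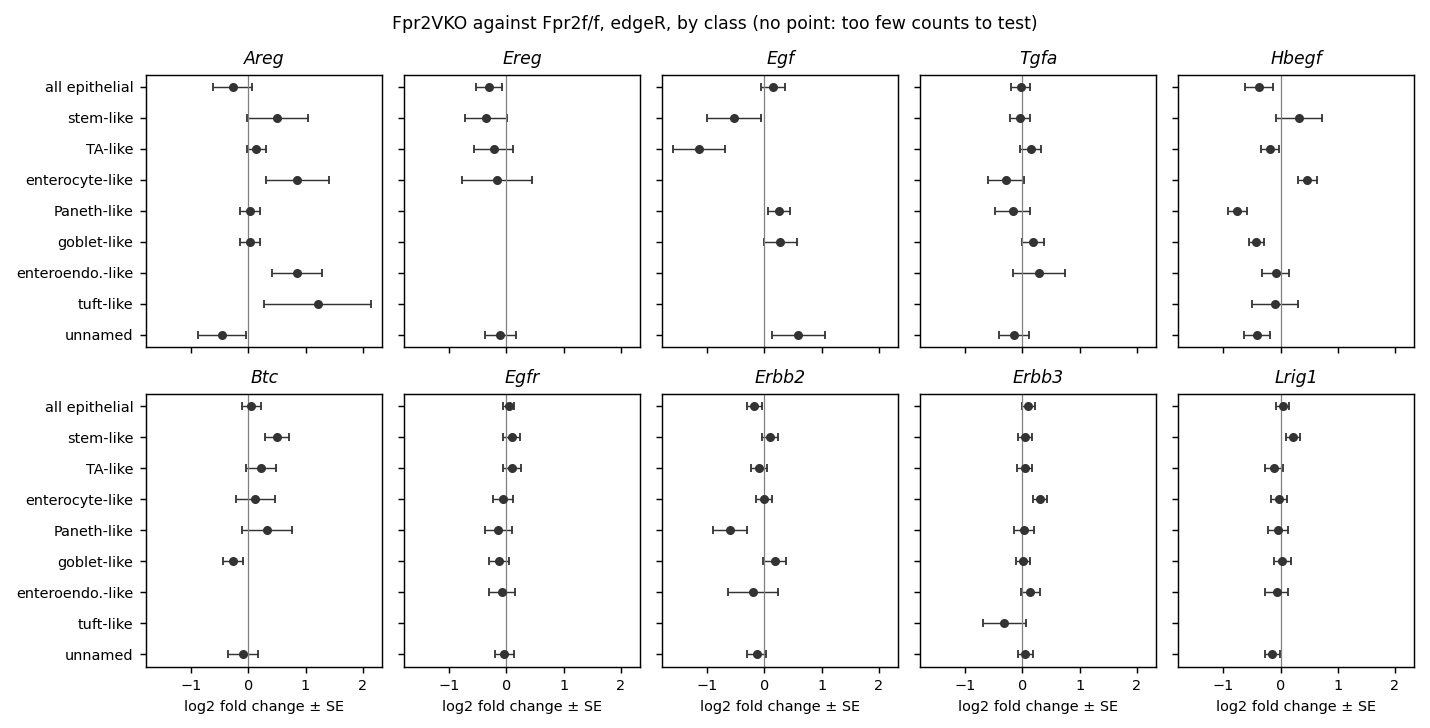
Log2 fold change (Fpr2VKO over Fpr2f/f, horizontal axis) of each gene in all epithelial cells and in each class, with bars of 1 SE from edgeR's quasi-likelihood fit on 3 libraries a group. A class with too few counts of a gene has no point. None of the plotted values passed an adjusted p of 0.05, and the value nearest to it was that of Hbegf in Paneth-like cells (-0.75 ± 0.17).

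Hbegf gave the value nearest to the threshold. In Paneth-like cells it was at 29.5, 27.4 and 29.0 CPM in Fpr2f/f and 15.9, 15.1 and 17.5 CPM in Fpr2VKO libraries. All Fpr2VKO values lay below all Fpr2f/f values, with a log2 fold change of -0.75 ± 0.17 (SE) and an adjusted p of 0.126. Erbb2 in Paneth-like cells also had groups that did not overlap, at 5.42, 6.43 and 4.65 CPM in Fpr2f/f against 3.61, 3.14 and 4.34 in Fpr2VKO libraries (adjusted p = 0.694), so 2 of 9 members did so against 6.95% of all genes tested in this class. Summed enterocyte markers, at 172 to 209 CPM in Fpr2f/f and 145 to 168 CPM in Fpr2VKO Paneth-like cells, lay in the same order without overlap, and Hbegf in free RNA was at 135, 213 and 119 CPM in Fpr2f/f and 132, 134 and 74.6 CPM in Fpr2VKO libraries. Their part in the Hbegf values was not tested. The depth of Paneth-like cells also moved with the groups, at a median of 8735, 7028 and 13827 UMIs in Fpr2f/f and 30987.5, 34648 and 24184 UMIs in Fpr2VKO libraries. Hbegf was at 18.5 CPM in deep and 84.8 CPM in shallow Paneth-like cells (under 10000 UMIs). In Paneth-like cells of at least 10000 UMIs alone, Hbegf was at 20.5, 18.5 and 28.3 CPM in Fpr2f/f and at 14.4, 13.05 and 16.1 CPM in Fpr2VKO libraries, without overlap (log2 fold change -0.61, adjusted p = 0.366). The share of all genes without overlap was not worked out for these deep cells. In the shallow ones, from 10 to 94 Hbegf UMIs a library, it was at 118, 161 and 40.4 CPM for Fpr2f/f against 55.4, 84.8 and 48.6 CPM for Fpr2VKO, and the groups overlapped. Within cluster 11 (14.1, 25.7 and 12.1 CPM against 12.8, 7.97 and 10.9) and within cluster 21 (52.1, 40.04 and 67.6 against 23.3, 51.0 and 44.2) the groups overlapped. The other members in Paneth-like cells were Areg (0.02 ± 0.18), Egf (0.25 ± 0.20), Tgfa (-0.17 ± 0.30), Btc (0.33 ± 0.44), Egfr (-0.14 ± 0.23), Erbb3 (0.03 ± 0.18) and Lrig1 (-0.04 ± 0.17), with adjusted p-values of 0.831 to 0.990.

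In goblet-like cells, where Hbegf was most abundant, the values were 302, 352 and 322 CPM in Fpr2f/f and 243, 304 and 211 CPM in Fpr2VKO libraries. The groups overlapped by 1 library, and the log2 fold change was -0.42 ± 0.13 with an adjusted p of 0.221. Within the goblet-like clusters 12 (395, 465 and 422 CPM against 407, 417 and 227), 13 (218, 75.01 and 132 against 113, 83.7 and 75.3) and 14 (292, 399 and 319 against 223, 350 and 237) the groups overlapped as well. The share of goblet-like cells in cluster 14 was higher in Fpr2VKO libraries, without overlap. It held 65 of 270, 121 of 431 and 66 of 311 cells in Fpr2f/f and 73 of 252, 140 of 338 and 65 of 175 in Fpr2VKO libraries. The part of this shift was not tested. Summed goblet markers were at 92652 to 106484 CPM in Fpr2f/f and 87481 to 88681 CPM in Fpr2VKO goblet-like cells, and summed enterocyte markers at 1434 to 1623 CPM and 1628 to 1830 CPM. Neither marker list overlapped between the groups, and their part in the values of this class was not tested.

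Goblet-like Tgfa was at 14.7, 17.5 and 17.4 CPM in Fpr2f/f and 19.5, 19.9 and 20.5 CPM in Fpr2VKO libraries, which did not overlap (log2 fold change 0.19 ± 0.19, adjusted p = 0.804), and it was the only member of 9 tested to do so against 16.3% of all genes. Areg (0.03 ± 0.18), Btc (-0.26 ± 0.17) and Egf (0.28 ± 0.29) had adjusted p-values of 0.972, 0.672 and 0.807 there. Egfr (-0.13 ± 0.17), Erbb2 (0.18 ± 0.21), Erbb3 (0.01 ± 0.12) and Lrig1 (0.03 ± 0.14) had adjusted p-values of 0.838 to 0.984.

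In enterocyte-like cells the Hbegf values lay the other way round. They were 70.9, 114 and 101 CPM in Fpr2f/f and 121, 151 and 125 CPM in Fpr2VKO libraries, all of the latter above all of the former (log2 fold change 0.47 ± 0.16, adjusted p = 0.627). Erbb3 was at 140, 137 and 114 CPM in Fpr2f/f and 170, 164 and 154 CPM in Fpr2VKO libraries, again without overlap (0.31 ± 0.13, adjusted p = 0.717). These were 2 of the 9 members tested, against 10.8% of all genes. With a mitochondrial limit of 10%, both turned round, to -0.57 for Hbegf and -0.17 for Erbb3, and so did Areg, to -0.74. In that setting the cells were clustered and named anew, so the class held partly other cells. Its median depth was 2744, 3559.5 and 3831 UMIs in Fpr2f/f and 16057, 3618 and 6112 UMIs in Fpr2VKO libraries, against 27981.5 in the main class. Each Fpr2VKO library held 34 to 50 cells of it. Areg had the largest fold change of the members tested, at 0.86 ± 0.55 (adjusted p = 0.923), from 58.5, 140 and 49.9 CPM in Fpr2f/f and 154, 191 and 102 CPM in Fpr2VKO libraries, which overlapped. Ereg (-0.16 ± 0.61), Tgfa (-0.29 ± 0.31), Btc (0.12 ± 0.34), Egfr (-0.07 ± 0.18), Erbb2 (-0.01 ± 0.14) and Lrig1 (-0.02 ± 0.14) had adjusted p-values of 0.966 to 0.996. Summed enterocyte markers were at 6828 to 10128 CPM in Fpr2f/f and 8863 to 13676 CPM in Fpr2VKO enterocyte-like cells. The difference of the Fpr2VKO effect between enterocyte-like cells and stem-like plus TA-like cells was tested as an interaction, and 0 of 10 members passed against 0.122% of the 13088 genes tested. The difference was 0.52 ± 0.13 on the log2 scale for Hbegf (unadjusted p = 0.00111, adjusted p = 0.231) and 0.31 ± 0.10 for Erbb3 (unadjusted p = 0.00418, adjusted p = 0.400), the 2 members with an unadjusted p under 0.05, against 7.36% of all genes. The other members had differences of 0.72 ± 0.46 for Areg, 0.28 ± 0.42 for Ereg, -0.23 ± 0.79 for Egf, -0.24 ± 0.25 for Tgfa, -0.32 ± 0.36 for Btc, -0.13 ± 0.17 for Egfr, 0.10 ± 0.14 for Erbb2 and -0.10 ± 0.12 for Lrig1. DESeq2 called 0 members, against 0.0601% of all genes. Under alternatives, the interaction called Areg without Fpr2f/f 2 (0.154% of all genes called) and Hbegf with no filter on low counts (0.252%).

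**Figure D5:**
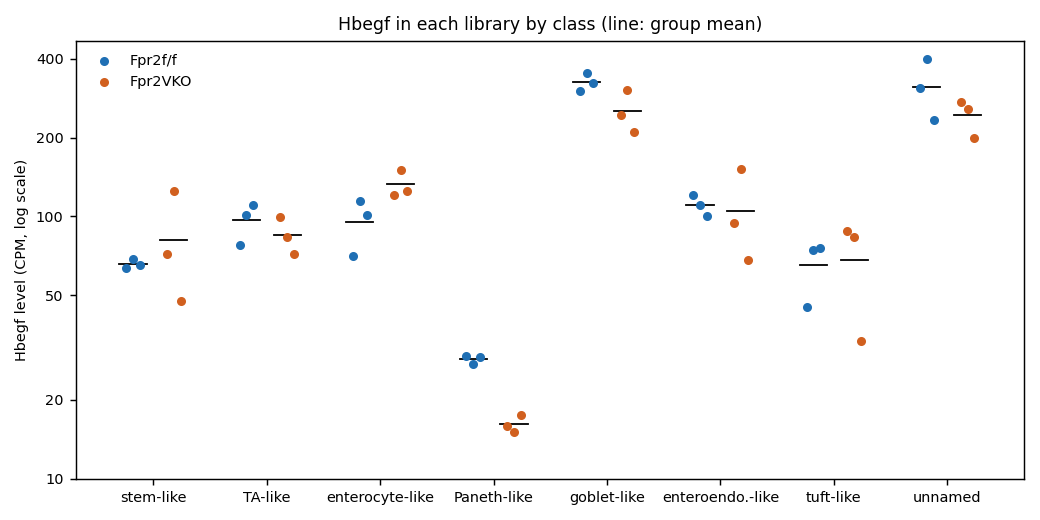
Level of Hbegf (CPM, log axis) in every library by cell class, with Fpr2f/f in blue, Fpr2VKO in orange and the mean of each group as a line. In Paneth-like cells the Fpr2VKO libraries (15.1 to 17.5) lay below the Fpr2f/f libraries (27.4 to 29.5), in goblet-like cells the groups overlapped, and in enterocyte-like cells the Fpr2VKO libraries (121 to 151) lay above the Fpr2f/f libraries (70.9 to 114).

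In stem-like cells Btc was at 7.60, 5.71 and 6.40 CPM in Fpr2f/f and at 8.66, 10.1 and 9.18 CPM in Fpr2VKO libraries. The groups did not overlap, with a log2 fold change of 0.50 ± 0.22 and an adjusted p of 0.455, and Btc was the only member of 10 to do so against 14.1% of all genes. Lrig1 (0.22 ± 0.13, adjusted p = 0.642) and Egfr (0.09 ± 0.14, adjusted p = 0.925) were tested there too. Summed stem cell markers moved with the groups, at 3916 to 5035 CPM in Fpr2f/f and 7717 to 8148 CPM in Fpr2VKO stem-like cells, and so did summed enterocyte markers, at 599 to 710 CPM and 724 to 806 CPM, neither list with overlap. Their part in the Btc values was not tested. The make-up of the class by cluster differed in cells pooled over libraries. Clusters 19 and 22, led by Olfm4 and Lgr5, held 135 of 547 stem-like cells (24.7%) in Fpr2f/f and 322 of 813 (39.6%) in Fpr2VKO libraries. Cluster 8 held the others, and by library its share overlapped between the groups. It held 182 of 225, 95 of 146 and 135 of 176 stem-like cells in the Fpr2f/f libraries. In the Fpr2VKO libraries it held 161 of 242, 185 of 358 and 145 of 213. Within cluster 8 Btc was at 5.93, 5.02 and 5.08 CPM in Fpr2f/f and 6.93, 7.73 and 7.61 CPM in Fpr2VKO libraries, from 18 to 43 Btc UMIs a library. Within cluster 19 it was at 10.5, 6.30 and 6.09 against 10.7, 11.9 and 12.2 CPM, from 4 to 36 Btc UMIs a library. The groups did not overlap in either, but the share of all genes without overlap was not worked out within single clusters. Within cluster 22, with 3 to 20 Btc UMIs a library, the groups overlapped. Areg (0.50 ± 0.53), Ereg (-0.35 ± 0.37), Egf (-0.53 ± 0.47), Tgfa (-0.04 ± 0.18), Hbegf (0.32 ± 0.40), Erbb2 (0.10 ± 0.14) and Erbb3 (0.04 ± 0.12) had adjusted p-values of 0.816 to 0.984 in stem-like cells.

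In TA-like cells Egf was at 4.64, 1.49 and 3.05 CPM in Fpr2f/f and 1.33, 1.21 and 1.49 CPM in Fpr2VKO libraries, from 9 to 31 UMIs a library, with groups that overlapped (-1.14 ± 0.46, adjusted p = 0.999). The other members in TA-like cells ran from -0.22 ± 0.34 for Ereg, -0.18 ± 0.16 for Hbegf, -0.11 ± 0.16 for Lrig1 and -0.09 ± 0.14 for Erbb2 through 0.04 ± 0.13 for Erbb3 and 0.10 ± 0.16 for Egfr to 0.14 ± 0.17 for Areg, 0.14 ± 0.18 for Tgfa and 0.22 ± 0.26 for Btc. Egf in Paneth-like cells (0.25 ± 0.20, adjusted p = 0.831) and Egfr in enteroendocrine-like cells (-0.07 ± 0.23, adjusted p = 1.0) were the tests in the lineages where these genes were highest. Enteroendocrine-like cells had 0.85 ± 0.43 for Areg, 0.30 ± 0.45 for Tgfa, -0.08 ± 0.24 for Hbegf, -0.20 ± 0.43 for Erbb2, 0.14 ± 0.17 for Erbb3 and -0.07 ± 0.20 for Lrig1. Tuft-like cells had 1.21 ± 0.94 for Areg, with 324 CPM in Fpr2VKO 2 and 33.7 to 64.3 CPM in the other libraries, -0.09 ± 0.40 for Hbegf and -0.31 ± 0.37 for Erbb3. In unnamed cells the fold changes were -0.45 ± 0.42 for Areg, -0.10 ± 0.26 for Ereg, 0.60 ± 0.46 for Egf, -0.14 ± 0.26 for Tgfa, -0.41 ± 0.22 for Hbegf, -0.09 ± 0.27 for Btc, -0.04 ± 0.17 for Egfr, -0.14 ± 0.16 for Erbb2, 0.05 ± 0.13 for Erbb3 and -0.14 ± 0.13 for Lrig1, with adjusted p-values of 0.777 to 0.976.

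The other genes of the pathway were taken from a list of 52. It held 6 further ligands and receptors, 5 genes of ligand shedding, 17 of signal transfer, 14 feedback inhibitors and 10 transcriptional targets. In all epithelial cells 51 were tested and 0 were called in either direction, and 0 were called in any class or in the interaction. Under alternatives, 13 of 161 refits called between 1 and 5 of them, and the calls are given in the account of the processing. Their median log2 fold change was -0.03 in all epithelial cells, 0.03 in stem-like, 0.01 in enterocyte-like and -0.08 in Paneth-like cells. DESeq2 called 5 values over 4 genes, namely Ccnd1, a cyclin of the G1 phase, in stem-like (log2 fold change -0.39 ± 0.10, DESeq2 adjusted p = 0.0350) and enterocyte-like cells (-0.60 ± 0.18, DESeq2 adjusted p = 0.0411), the early response genes Egr1 (0.65 ± 0.16, DESeq2 adjusted p = 0.00581) and Phlda1 (0.61 ± 0.16, DESeq2 adjusted p = 0.0105) in enterocyte-like cells, and Fos (0.67 ± 0.17, DESeq2 adjusted p = 0.0172) in Paneth-like cells. These were named after their values were seen. The shares of all genes that DESeq2 called are given above with the members. By edgeR's test the adjusted p was 0.125 for both Egr1 and Phlda1, 0.126 for Fos, and that of Ccnd1 was 0.166 for the stem-like and 0.473 for the enterocyte-like class.

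Across lineages, the neuregulin gene Nrg1, which encodes a ligand of ERBB3, was at 1282 ± 317 CPM in enteroendocrine-like cells and at 4.71 to 15.2 CPM on average in the other named classes. Enteroendocrine-like cells thus had the highest mean level of both Egfr and Nrg1 among the named classes, and of Erbb3 on a par with enterocyte-like cells. Nrg1 had a log2 fold change of 0.21 ± 0.23 there (adjusted p = 1.0). Of the shedding genes, Adam17, which encodes the main sheddase of several EGFR ligands, was also highest in enteroendocrine-like cells (65.7 CPM, against 5.44 to 28.5), while Adam10 was at 156 CPM in TA-like, 148 in stem-like and 26.0 in Paneth-like cells. Errfi1, a feedback inhibitor that binds the EGFR kinase, was at 375 ± 48.8 CPM in goblet-like and 195 CPM in enteroendocrine-like cells against 30.9 to 112 CPM elsewhere. Fos (1984 ± 114) and Phlda1 (713 ± 73.7) also had their highest means in goblet-like cells, which among the named classes had the highest means of Areg, Hbegf, Btc and Tgfa, while Egr1 was at 544 CPM in enteroendocrine-like and 537 CPM in goblet-like cells. Pik3r1 (273 CPM) and Spred2 (128 CPM) were highest in enteroendocrine-like cells. In Paneth-like cells the log2 fold change of Errfi1 was -0.47 ± 0.13 (adjusted p = 0.302) and in enterocyte-like cells 0.61 ± 0.20 (adjusted p = 0.547).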

How the data were processed

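Each library had a deposited matrix of unnormalized counts of UMIs for genes by barcodes. The authors aligned reads to mm10 and counted with MobiVision (the annotation version and use of strand are not given in the sources used here), and used Seurat 4.0.0 on them afterwards. Barcodes with at least 1000 UMIs, 500 genes and at most 20% mitochondrial UMIs were kept as cells. Doublets were removed by their share of artificial doublets among neighbours. Cells were clustered on 2000 variable genes, with the described genes left out, 30 principal components, alignment of libraries by mutual nearest neighbours and the Leiden method at resolution 1. Clusters were named from marker lists. No library was a copy of another.

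UMIs were summed per library and class with at least 20 cells in a library. Groups were compared with edgeR 4.0.16 (quasi-likelihood test, TMM, filterByExpr, robust fit, Benjamini-Hochberg over all genes tested) with 3 libraries a group, and with DESeq2 1.42.0 as an alternative (R 4.3.3). Alternatives covered the normalization, filters, cell limits, alignment, doublets, depth, the replicate number as a block and leaving out each library, with both libraries numbered 3 left out as an alternative chosen after seeing the data. The study's test over cells was not used. Scripts were tested on simulated counts. All 10 genes are named in every comparison in which they passed the filter on low counts. Of the pathway list, the rule named genes past the threshold and the 3 of each subgroup with the highest mean level. For likeness, it named the 3 genes with the highest correlation. Results for 2 genes that these rules select are not reported here. The genes and lists were chosen with earlier results of these data known. Intervals allowed by a count of 0 use 3 counts and cover counting error only.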

Additional observations from a re-analysis of the deposited data

Results flagged for a closer look

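The log2 fold change of Hbegf (Fpr2VKO over Fpr2f/f) was higher in enterocyte-like than in Paneth-like cells by 1.22. It was listed because in the former class all 3 Fpr2VKO libraries lay above, and in the latter all 3 lay below, every Fpr2f/f library. The difference between these classes was not tested, and neither value passed the threshold in its own class. The enterocyte-like fold change turned to -0.57 with a mitochondrial limit of 10%, where the cells were clustered and named anew. The depth of Paneth-like cells differed between the groups, with a part in the result that was not tested.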

How the results depend on the processing

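Of 161 refits of a count of called members, 8 called 1 member and the others 0. The replicate numbers did not pair all libraries. Same-numbered libraries deviated together with r of -0.06, -0.06 and 0.29 over 16579 genes, and not every library correlated best with its own number. The pair numbered 3 had the highest r across the groups, followed by Fpr2f/f 2 with Fpr2VKO 1 (0.20) and Fpr2f/f 1 with Fpr2VKO 2 (0.19). Libraries numbered 3 had r from -0.16 to -0.12 with those numbered 1 and 2 of the other group. A block that set the libraries numbered 3 apart was not fitted. With the replicate block, 1 member was called in enterocyte-like cells (Areg, log2 0.94, adjusted p = 0.0216, against 0.652% of all genes called), in Paneth-like cells (Hbegf, -0.73, adjusted p = 0.0491, against 0.178%) and in goblet-like cells (Hbegf, -0.43, adjusted p = 0.0417, against 0.873%). The interaction already holds a library term, so no block was added there. With no filter on low counts, Hbegf was called in Paneth-like cells (-0.71, adjusted p = 0.0320, against 0.151% of all genes) and in the interaction (0.50, adjusted p = 0.00432, against 0.252%), 1 member each. With a mitochondrial limit of 10%, 1 member was called in stem-like cells (Areg, 1.63, adjusted p = 0.0443, against 0.0335% of all genes). That fit lacked Fpr2VKO 3, which held 18 stem-like cells there, under the minimum of 20. Leaving out 1 library gave 0 to 1 members called in Paneth-like cells (Hbegf, -0.83, adjusted p = 0.0273 without Fpr2f/f 1, against 0.15% of all genes) and in the interaction (Areg, 1.21, adjusted p = 1.09e-05 without Fpr2f/f 2, against 0.154%), and 0 elsewhere. The adjusted p of Hbegf in Paneth-like cells ran from 0.027 to 1.0 over its alternatives, with log2 fold changes from -0.85 to -0.54. Without both libraries numbered 3, an alternative chosen after seeing the data, 0 members were called, and Hbegf was -0.85 in Paneth-like and 0.55 in enterocyte-like cells. The cause of these changes was not tested.

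Of the pathway list, 8 genes were called in 13 of the refits, the 3 with DESeq2 calls included, and were named after their values were seen. With the replicate block these were Ccnd1 in stem-like cells (1.61% of all genes called) and Ccnd1, Egr1 and Phlda1 in enterocyte-like cells. With no filter on low counts they were Dusp4 in all epithelial cells (1.21%), Ccnd1, Dusp5, Egr1, Errfi1 and Phlda1 in enterocyte-like cells (0.434%), Fos in Paneth-like cells and Egr1 in the interaction. The 10% limit called Ccnd1, Egr1 and Fos in all epithelial cells (1.23%), and a minimum of 2000 UMIs Fos and Fosl1 in Paneth-like cells (0.153%). Phlda1 was called in enterocyte-like cells without Fpr2VKO 3 (0.125%) and Egr1 in the interaction without Fpr2VKO 2 (0.0239%).

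Of 1376 refitted fold changes of members, 170 changed sign and 0 of these were called. The mitochondrial limits of 10% and 40%, the minimum of 2000 UMIs, no alignment and kept doublets each had the cells clustered and named anew. A class could thus hold other cells there. In all epithelial cells, Hbegf was 0.016 in cells of at least 10000 UMIs, and Areg was 0.37 with the 10% limit, 0.44 in cells of at least 10000 UMIs and from -0.48 to 0.13 with 1 library left out (above 0 without Fpr2f/f 2). In enterocyte-like cells the 10% limit gave -0.57 for Hbegf, -0.17 for Erbb3 and -0.74 for Areg, and Areg in stem-like cells ran from -0.028 (without Fpr2VKO 2) to 0.83 with 1 library left out and was 1.11 without both libraries numbered 3. Of 70 refitted levels, 59 stayed within 1 SD. With a limit of 40%, Ereg in enterocyte-like cells was 16.4 CPM, Egf in Paneth-like cells 11.5, Egfr in enteroendocrine-like cells 113 (217 with 10%) and Erbb3 there 124. The Egfr value with 10% lacked Fpr2VKO 3, which then held 17 enteroendocrine-like cells, too few for a level. Erbb2 in TA-like cells was 31.6 with 10% and 30.1 in cells of at least 10000 UMIs. Lrig1 in stem-like cells was 165 with a minimum of 2000 UMIs, 149 without alignment and 167 with doublets kept. Egf in Paneth-like cells was 30.8 without defensin genes in the total, an alternative chosen after seeing the data. The class with the highest level held in every setting for 7 of 10 genes. It moved to enterocyte-like cells for Areg (321 CPM, 40% limit), for Erbb2 (52.1 and 45.8 with the 10% and 40% limits, 34.6 in deep cells) and for Erbb3 in 4 settings (146 to 148). Tuft-like cells were too few for the 10% limit and for the depth limit. Over all genes, counts of calls changed by over 1.5 times with the setting, in all epithelial cells from 1 to 346 and in stem-like cells from 1 to 232.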

Other observations

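Cluster 23, an unnamed group of 166 cells led by Ooep, Neurog3 and Slc39a2, was outside the comparisons above as a cluster of its own. Neurog3 is the factor that starts the enteroendocrine lineage. Over the 5 libraries with enough of these cells, Egfr was at 10.9 ± 7.87 CPM (SD, n = 5; 20 UMIs in all), where enteroendocrine-like cells had 172 ± 42.7. Erbb3 was at 70.8 ± 26.3 CPM and Lrig1 at 84.4 ± 27.2, against 147 ± 13.2 and 96.0 ± 14.5 in enteroendocrine-like cells. No test was run between these groups of cells.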
